A study of Homo sapiens with 9 samples.

Results

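The baseline transcriptome described here is that of untreated HMEC-1, an established line of human dermal microvascular endothelial cells immortalised with the SV40 large T antigen. Its members are the 3 samples labelled as controls, out of 9 samples in the series, and each was a separate library of total RNA. The other samples were HMEC-1 treated with 50 µM trimethylamine-N-oxide (TMAO), a metabolite that the body makes from products of gut bacteria, for 24H (3 samples) or 48H (3 samples). They are used here only to show how the baseline genes stood after treatment. The study's methods describe treatment in medium with reduced serum, and its results state that controls of 24H and 48H were pooled for sequencing. How long each control was in culture is therefore not known here. The part of time in culture in the spread between controls, or in their differences from treated samples, was not tested. All samples came from a single line with a viral oncogene, and nothing in the labels says whether replicates were separate cultures, so p-values measure only the spread between these samples.

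Endothelial cells line blood and lymph vessels. They are held together by adherens junctions built on VE-cadherin (CDH5), they sense vascular endothelial growth factor through the receptor KDR, and they carry PECAM1 at their contacts. Von Willebrand factor (VWF), which tethers platelets, is stored in their Weibel-Palade bodies. Transcription factors of the ETS family, such as ERG and FLI1, and of the SOX F group (SOX7, SOX17 and SOX18) keep this programme active, and the mix of arterial, venous, lymphatic and capillary genes differs with the vessel of origin and is known to drift in culture.

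The 3 control libraries held 29160868 to 30069548 estimated counts. Of these, 6 ribosomal RNA genes took 1.89% in replicate 1 (95% Wilson interval 1.88% to 1.89%), 1.64% in replicate 2 (1.63% to 1.64%) and 7.46% in replicate 3 (7.45% to 7.47%), and such intervals cover counting error only. These genes were removed, and levels are given as CPM, counts per 1e6 of the remaining 27826346 to 29230849 counts. CPM compares a gene between libraries. To compare genes with each other, CPM was divided by the length of the longest annotated transcript in kilobases (CPM per kilobase), which was available for 12283 of 12770 detected genes. A gene was called detected at 1 CPM or more in each of the 3 controls, and a count of 3, taken as the limit that a count of 0 allows, corresponds to 0.103 to 0.108 CPM.

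Of 29734 genes in the table, 12770 (42.95%) were detected, 9619 reached 10 CPM in each control, 2506 reached 100 CPM and 55 reached 1000 CPM. At the other end, 10242 genes had 0 counts in all 3 controls and 13083 had at most 3 counts in each. Protein-coding genes, by their RefSeq class, took 98.28% of the counts, and 11827 of 18868 were detected (62.68%). Long non-coding RNAs took 0.659% of the counts, with 363 of 2790 detected. The 100 most abundant genes held 13.7% ± 0.198 (SD, n = 3) of the counts.

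The genes of highest mean CPM were EEF1A1 (7958 ± 179, SD, n = 3), which brings aminoacyl-tRNA to the ribosome, the cytoplasmic actins ACTB (4500 ± 276) and ACTG1 (3570 ± 164), and the matrix glycoproteins FN1 (3232 ± 420) and THBS1 (3109 ± 140). The cytoskeletal genes FLNA, MYH9, VIM and TUBA1B and the glycolytic gene GAPDH completed the 10 genes of highest mean CPM, between 2394 and 3044 CPM. Per kilobase, the order changed to TMSB10, an actin-binding thymosin, at 2360 ± 117 CPM per kilobase, followed by ACTB (2004 ± 122.8), EEF1A1 (1792 ± 40.3), ACTG1 (1582 ± 72.8) and GAPDH (1277 ± 31.2). LGALS1, VIM, TMSB4X, LUZP6 and RPL7A followed. LUZP6 lies within the locus of another gene and has a transcript model of 177 bases, so its level is uncertain. The list of basement membrane and matrix genes had 10 of its 24 members among the 100 most abundant genes and took 1.93% to 2.18% of the counts, while 86 ribosomal protein genes had 11 members there and took 3.67% to 4.21%.

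All 4 markers that define the line as endothelial were present in every control. CDH5 stood at 799, 763 and 683 CPM in control replicates 1 to 3, and PECAM1 at 389.8, 381.5 and 334 CPM. KDR stood at 200.4, 188 and 170.0 CPM, and VWF at 126, 122 and 109 CPM. In each of these 4 genes replicate 3 was the lowest, with a coefficient of variation (CV) of 7.41% to 8.22%. Per kilobase CDH5 was the highest of the 4, at 181 ± 14.4 (by length-corrected level 212th of 12283 detected genes), and PECAM1 at 53.9 ranked 1106th, KDR at 30.7 ranked 2206th and VWF at 13.5 ranked 5065th. By this measure VWF, the classical marker of endothelial storage granules, was close to the middle of all detected genes, at percentile 58.8, while CDH5 was at percentile 98.3. The order depended on the length used. With the median length of the annotated transcripts of each gene, PECAM1 was at 635.1, CDH5 at 387.3, VWF at 173.1 and KDR at 33.85 CPM per kilobase.

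**Figure D1:**
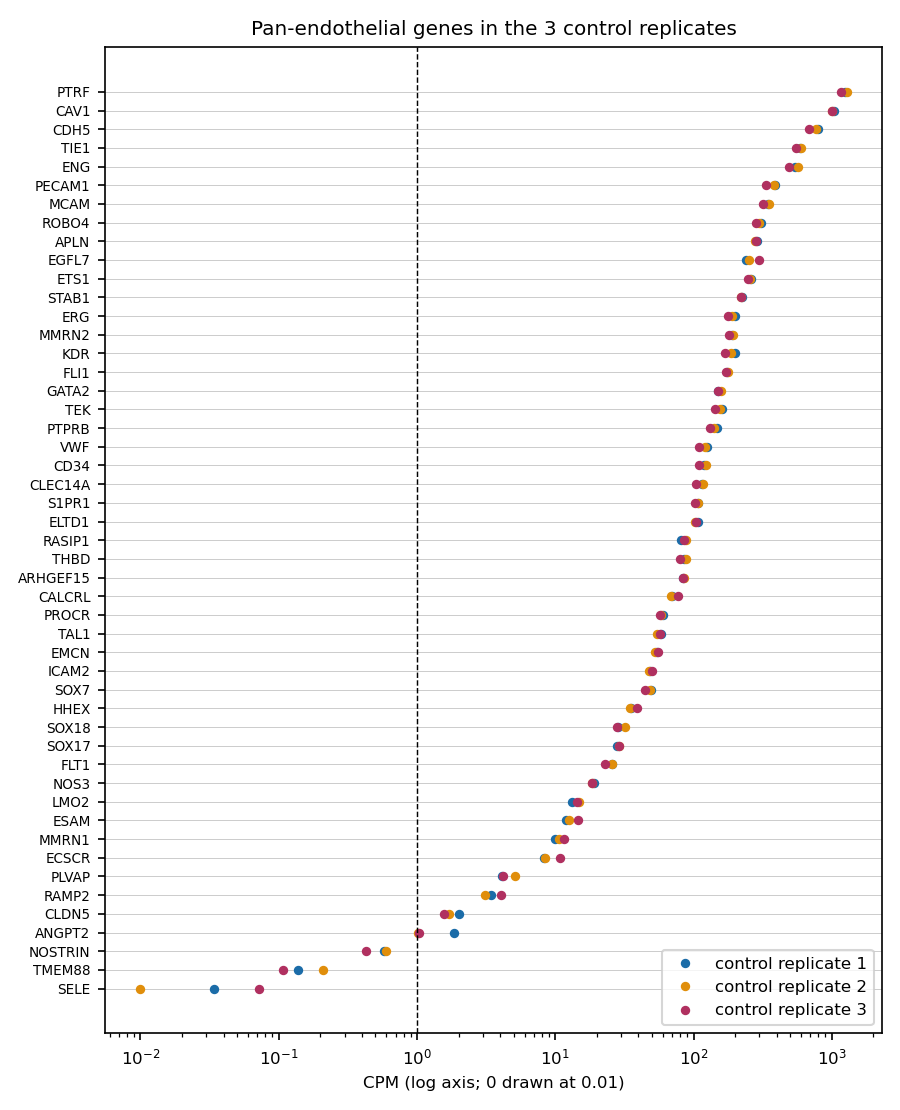
CPM of the 49 pan-endothelial genes (vertical axis, older symbols as in the table) in control replicates 1, 2 and 3 (colours) on a log axis, with 0 drawn at 0.01 and a dashed line at 1 CPM. Of the 49 genes, 46 lie at or beyond the dashed line in all 3 replicates, and the replicates of each detected gene lie close together next to the distance between genes.

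The wider pan-endothelial list held 49 genes, and 46 of them were detected, against 42.95% of all genes in the table and 62.68% of protein-coding genes. The share of 62.68% is also the background for the counts of detected genes in the other lists below. At 10 CPM or more in each control were 40 members of the pan-endothelial list, and at 100 CPM or more 24. The median of the list was 85.3 CPM, or 20.9 CPM per kilobase. The median per kilobase was 1.31 for fibroblast, 4.30 for epithelial and 0.00490 for leukocyte genes. PTRF and CAV1, which build caveolae, were highest per kilobase (320.3 and 317 CPM per kilobase, 1226 ± 62.2 and 1016 ± 17.7 CPM), followed by CDH5, the TGF-beta co-receptor ENG (538, 568 and 494 CPM) and the orphan receptor TIE1 (591, 603 and 551.5 CPM). That order, too, depended on the length used. With the median length TIE1 was highest of the list, at 911.9 CPM per kilobase, with CAV1 at 614.7 and PTRF at 320.3. The summed level of the list was 8322 to 8842 CPM, or 0.832% to 0.884% of the counts.

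Transcription factors of the endothelial programme were detected throughout. ERG reached 188 ± 10.6 CPM (37.4 CPM per kilobase), FLI1 175 ± 2.94, ETS1 255 ± 6.63, GATA2 153 ± 4.601 and TAL1 56.6 ± 1.96 CPM. The SOX F genes were detected too, with SOX7 at 47.4 ± 2.47, SOX17 at 28.7 ± 0.448 and SOX18 at 29.4 ± 2.14 CPM. LMO2, a partner of TAL1, stood at 14.2 ± 0.833 CPM and the homeobox gene HHEX at 36.2 ± 2.40 CPM.

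Several genes that are abundant in vessels were low or missing. SELE (E-selectin), which cytokines induce, had 1, 0 and 2 counts in the 3 controls, under the limit that a count of 0 allows, and NOSTRIN and TMEM88 stayed below 1 CPM in each. CLDN5, the claudin of endothelial tight junctions, was at 2.02, 1.71 and 1.58 CPM and ranked 11594th of 12283 per kilobase. ANGPT2, which is stored with VWF, was at 1.85, 1.01 and 1.04 CPM, just inside the limit of detection. PLVAP, the diaphragm protein of fenestrae and caveolae, was at 4.11, 5.09 and 4.21 CPM, and RAMP2, the co-receptor for adrenomedullin, at 3.46, 3.10 and 4.06 CPM. NOS3, the endothelial nitric oxide synthase, was detected at 18.6 ± 0.484 CPM, or 4.25 CPM per kilobase (percentile 28.4 of detected genes).

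**Figure D2:**
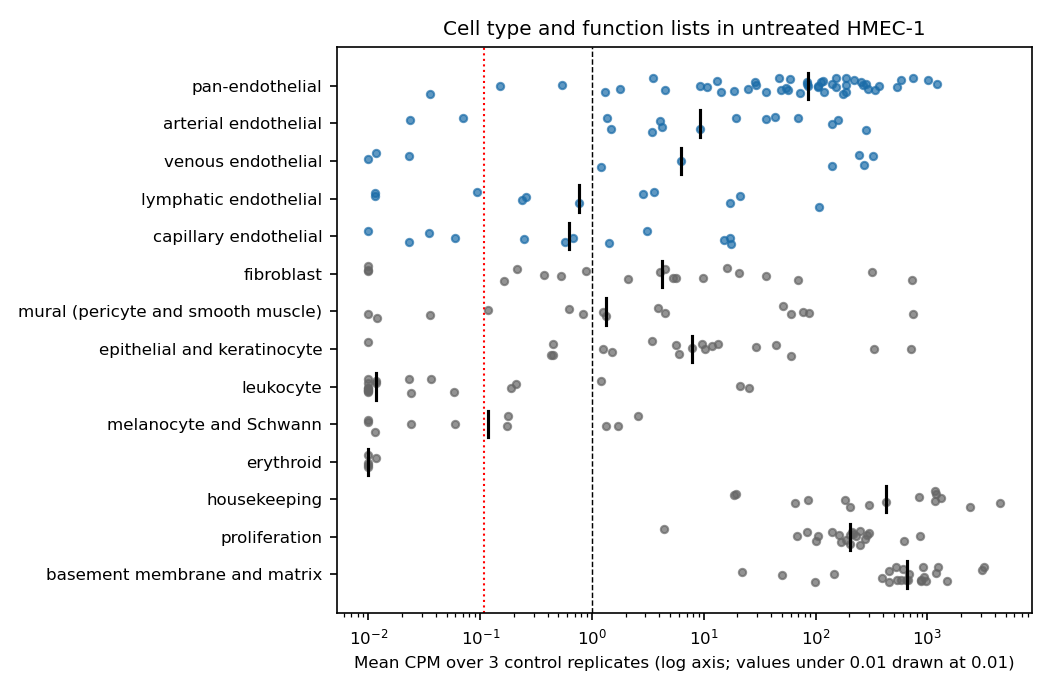
Mean CPM over the 3 controls (log axis, values under 0.01 drawn at 0.01) of every gene in 14 lists, with black bars at the list medians, a dashed line at 1 CPM and a dotted line at the highest limit that a count of 0 allows in a control (0.108 CPM). Pan-endothelial genes have a median of 85.3 CPM, against 0.0116 CPM for leukocyte genes, 4.26 CPM for fibroblast genes and 7.85 CPM for epithelial genes.

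Genes that separate vessel types were present in part for every type, beside 62.68% of all protein-coding genes detected. Among the arterial genes, 13 of 15 were detected, among them the receptor NOTCH1 (282 ± 14.96 CPM), the latent TGF-beta binding protein LTBP4 (158 ± 0.187) and the co-receptor NRP1 (141 ± 7.39), while the gap junction genes GJA4 and GJA5 had at most 3 counts in each control. The arterial Notch targets HEY1 and HEY2 were near the limit of detection, at 1.36 ± 0.0735 and 1.48 ± 0.283 CPM. Of 9 venous genes 6 were detected, and NR2F2 (COUP-TFII), the factor that specifies veins, was at 324 ± 10.3 CPM, with EPHB4, the venous ephrin receptor, at 273 ± 4.54 CPM and its arterial ligand EFNB2 at 36.2 ± 1.03 CPM. Corrected for length, EPHB4 stood at 54.1 CPM per kilobase and EFNB2 at 7.25. The venular genes ACKR1 (DARC in the table), SELP and APLNR had at most 3 counts in each control, and APLNR had 0 in all 3.

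Of 11 lymphatic genes, 5 were detected, a smaller share than the 62.68% of all protein-coding genes. PDPN, a mucin-type surface protein, was at 111, 110.3 and 99.0 CPM, the receptor FLT4 at 21.2 ± 0.277 and the factor FOXC2 at 15.35 to 17.95 CPM. PROX1, the factor that specifies lymphatic endothelium, was at 0.103, 0.314 and 0.287 CPM, and LYVE1 at 0.137, 0.349 and 0.287 CPM, both below 1 CPM in each control. RELN and STAB2 had at most 3 counts in each. Of 12 capillary genes 5 were detected, all between 1.42 and 17.4 mean CPM, among them the fatty acid binding protein FABP5 (17.4 CPM per kilobase) and the water channel AQP1 (5.96 CPM per kilobase), with the carbonic anhydrase CA4 at 0 counts in all 3 controls.

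Genes of blood clotting, fibrinolysis and vascular tone were mostly expressed, with 20 of 24 detected. The plasminogen activators PLAT and PLAU were at 109 ± 10.3 and 152 ± 12.7 CPM. Anticoagulant genes were represented by TFPI (299.7 ± 14.4 CPM), THBD (84.5 ± 3.95) and PROCR (58.4 ± 1.61), while F3, the tissue factor that starts clotting, was at 2.74, 2.37 and 3.81 CPM. Endothelin EDN1 (229 ± 10.9 CPM) and its processing enzyme ECE1 (856 ± 72.8 CPM) were both abundant. The angiotensin-converting enzyme ACE, the cyclooxygenase PTGS2 and both subunit genes of soluble guanylate cyclase (GUCY1A3 and GUCY1B3 in the table) were below the limit of detection, and PTGS1 was at 1.35 ± 0.285 CPM. The shear-responsive factors KLF2 and KLF4 were at 68.6 ± 2.19 and 17.7 ± 0.541 CPM.

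Genes for leukocyte adhesion and chemokines had 12 of 20 members detected, near the 62.68% of all protein-coding genes. ICAM1 was at 24.2, 25.5 and 23.4 CPM and ICAM2, its constitutive relative, at 48.2, 48.1 and 50.4 CPM. VCAM1 was at 1.23, 1.18 and 1.22 CPM, close to the limit of detection. Among the secreted factors IL8 (CXCL8) was highest per kilobase, at 9.29 CPM per kilobase (15.8 ± 0.573 CPM), followed by CCL2 at 8.25 CPM per kilobase (8.22 ± 0.700 CPM), whereas IL6 at 2.60 ± 0.344 CPM and IL1B, described with the RT-qPCR genes, were near the limit. CX3CL1, CSF2 and CSF3 were not detected.

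Adherens junction genes were abundant, and 18 of the 20 junction genes were detected. Beside CDH5, the catenins CTNNA1 (703 ± 55.8 CPM), CTNNB1 (529.7 ± 12.4) and CTNND1 (509 ± 28.1) and the linker VCL (422 ± 30.5) were among them, and the neural cadherin CDH2 was at 45.4 ± 2.89 CPM. CLDN11 was the highest claudin of the list, at 84.4 CPM per kilobase (183 ± 6.08 CPM), and CLDN5 was the lowest, at 0.694 CPM per kilobase. GJA1 (connexin 43) was at 308 ± 4.14 CPM, in contrast to GJA4 and GJA5.

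Of 29 growth factor receptor genes, 27 were detected and 24 reached 10 CPM in each control. Per kilobase of the longest transcript, ENG (174 CPM per kilobase), TIE1 (149.9) and the TGF-beta receptor TGFBR2 (109) led the list, followed by TNFRSF1A (68.0) and the BMP receptor ACVRL1 (53.9). With the median length TIE1 stood at 911.9 and ENG at 190.3 CPM per kilobase. Among the vascular endothelial growth factor receptors, KDR stood at 30.7 CPM per kilobase, with FLT1 at 3.51 (24.9 ± 1.56 CPM) and FLT4 at 3.62. The angiopoietin receptor TEK was at 160.4, 155 and 142 CPM, or 32.0 CPM per kilobase. FGFR2 and PDGFRA were not detected.

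The basement membrane and matrix list was detected in full (24 of 24), with 21 genes at 100 CPM or more in each control. The basement membrane collagens COL4A1 and COL4A2 were at 536 ± 38.1 and 918 ± 55.6 CPM, the laminin chains LAMA4, LAMB1 and LAMC1 at 452 ± 40.1, 871 ± 66.6 and 585 ± 40.8 CPM, and the proteoglycan HSPG2 at 872 ± 50.3 CPM. The gelatinase MMP2 was at 605 ± 51.2 CPM. The matricellular genes CTGF and CYR61 reached 1508 ± 39.3 and 1187 ± 28.2 CPM and varied little, with CVs of 2.61% and 2.37%. FN1 varied most among the abundant genes of the list, with 3630 CPM in replicate 1, 3273 in replicate 2 and 2794 in replicate 3 (CV 13.0%).

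Some genes used to mark fibroblasts and mural cells were also expressed. The share detected in both lists was near the 62.68% of all protein-coding genes. Of 20 fibroblast genes 12 were detected, and the collagen genes COL1A1 (765, 739 and 678 CPM) and COL1A2 (339, 329.9 and 281 CPM) were highest, at 108 and 52.8 CPM per kilobase against at most 14.7 in the rest of the list. LOX (70.1 mean CPM), COL3A1 (36.1) and TWIST2 (20.6) were detected too. So were, at lower levels, FBLN1 (9.81), POSTN (5.685), PI16 (5.30), COL6A3 (4.48), FAP (4.04) and PRRX1 (2.10). Other members of the list were missing or low. DCN, LUM and DPT had 0 counts in all 3 controls, and PDGFRA was at 0.445, 0.383 and 0.287 CPM. THY1, a surface marker of fibroblasts and of activated endothelium, was at 16.2 ± 1.03 CPM. Of 15 mural genes 9 were detected, among them CALD1 (741 ± 33.8 CPM), TAGLN (86.7 ± 6.95), NOTCH3 (77.4 ± 5.71), CSPG4 (60.1 ± 2.54) and PDGFRB (51.5 ± 2.38), while KCNJ8, ABCC9 and MYOCD had at most 3 counts in each control. MYH11, the smooth muscle myosin, was at 0.268, 0.566 and 1.02 CPM.

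Keratins made up most of the signal of the epithelial and keratinocyte list, of which 14 of 19 genes were detected. The simple-type keratins KRT18 (709, 750.5 and 660.1 CPM), KRT7 (323, 351 and 333 CPM) and KRT8 (62.9, 59.3 and 60.1 CPM) differed little between replicates, with CVs of 6.41%, 4.24% and 3.11%. The basal keratins KRT5 (31.0, 43.0 and 58.1 CPM) and KRT14 (23.9, 26.7 and 38.1 CPM) were each highest in replicate 3, as was KRT6A, a keratin of activated epidermis outside the list (13.3, 10.3 and 22.9 CPM). EPCAM was at 7.85 ± 0.813 CPM, CDH1 (E-cadherin) at 3.45 ± 0.432, TP63 at 1.26 ± 0.268, and KRT1 had 0 counts in all controls. The list summed to 1219 to 1300 CPM in controls.

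Across all 9 samples, KRT5, KRT14 and KRT6A had their lowest values in the same library, TMAO 48H replicate 3, at 4.46, 2.41 and 1.14 CPM. The other 2 libraries at 48H had 39.9 and 52.7 CPM of KRT5, within the range of the controls. SFN, a 14-3-3 protein of stratified epithelium, was also lowest there, at 1.55 CPM against 4.31 to 7.51 CPM in controls, and DSG3, a desmosomal cadherin, was at 0.0409 CPM against 0.274 to 0.647 CPM. The fall was not limited to keratins and genes of stratified epithelium. EPCAM was at 1.35 CPM in that library against 7.08 to 8.70 CPM in controls. CDH1 was at 1.23 against 2.96 to 3.77 CPM, and CLDN4 at 3.35 against 9.41 to 9.955 CPM. Other list members lay within the range of the controls there, among them TP63 (1.10 CPM), CLDN7 (14.1) and KRT19 (5.19). KRT7 and KRT18 were at 241 and 620 CPM in that library, beside 247 to 263 and 594 to 603 CPM in the other 2 of its group. These genes were set side by side after their values were seen. Fewer cells of a type and less RNA per cell cannot be told apart in bulk RNA, and the part of other cells in these values was not tested.

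**Figure D3:**
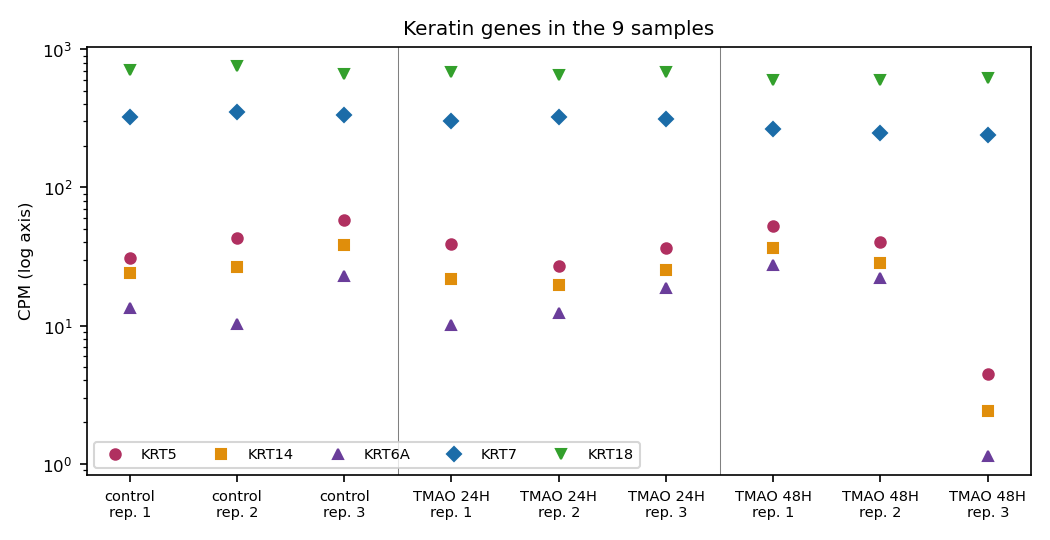
CPM (log axis) of KRT5, KRT14, KRT6A, KRT7 and KRT18 in each of the 9 samples, with vertical lines between the control, TMAO 24H and TMAO 48H groups. KRT5, KRT14 and KRT6A drop to 4.46, 2.41 and 1.14 CPM in TMAO 48H replicate 3, while KRT7 and KRT18 remain between 241 and 750.5 CPM in all samples.

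Genes of blood cells were at the limit of detection. Of 19 leukocyte genes, 14 had at most 3 counts in each control and 8 had 0 counts in all 3, among them CD3D, CD3E, MS4A1, NKG7 and SPI1, and PTPRC (CD45) had 0, 0 and 0.108 CPM. The 3 detected members were the lysosomal genes CD68 (21.1 ± 1.53 CPM) and LAPTM5 (25.6 ± 0.445) and the endotoxin co-receptor CD14 (1.20 ± 0.167). Of 10 melanocyte and Schwann cell genes 3 were detected, at 1.34 to 2.59 mean CPM, with TYR and DCT at 0 counts in each control. None of the 5 erythroid genes measured was detected (0 to 0.0349 CPM summed), and HBA1, HBA2 and HBB were not analysed here. Of the 10 genes of hepatocytes and neurons, added as a reference for tissues that were not cultured, SERPINA1 and SYP were detected, at 1.64 and 1.46 mean CPM.

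The culture expressed genes of the cell cycle. All 21 genes of the proliferation list were detected, 17 of them at 100 CPM or more in each control. TOP2A, a topoisomerase of dividing cells, was at 872, 871 and 841 CPM, and MKI67 at 675, 616 and 554 CPM, lowest in replicate 3. Cyclins CCNB1 (278 ± 7.86 CPM) and CCNA2 (212 ± 7.04) were abundant, while CCNE1 was at 4.43 ± 0.400 CPM. The cyclin-dependent kinase inhibitors CDKN1A (229 ± 7.30 CPM), CDKN1B (163 ± 13.4) and CDKN2A (250.4 ± 29.7) were expressed beside RB1 (169 ± 3.56), a target of the large T antigen. Housekeeping genes were detected in full (15 of 15), with a median CV of 3.81%, and ACTB was the highest of them in CPM.

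Promoter sequence was compared with detection because vertebrate promoters differ widely in their content of CG dinucleotides. RefSeq windows of GRCh38.p14, from 250 bases before to 50 bases after the start, were matched by symbol to 15102 of 18868 protein-coding genes (80.04%). The match was 82.8% for detected genes and 75.4% for genes that were not detected, and it was 61.2% for the pan-endothelial list, too few for a check of that list. The ratio of observed to expected CG was taken as the number of CG times the window length, divided by the product of the numbers of C and G. Detection was 17.4% of 1838 genes with a ratio under 0.2, 28.5% of 1811 genes from 0.2 to 0.4, 49.5% of 1305 genes from 0.4 to 0.6, 73.8% of 3273 genes from 0.6 to 0.8 and 85.8% of 6875 genes from 0.8. CG occurred in 98.1% of the windows, the same on both strands, and this is a description of matched genes only.

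Of the 4 markers, the window table held KDR, and PECAM1, CDH5 and VWF had no entry. TIE1 and SELE, chosen after their values were seen, are shown with it because they stand near opposite ends of the endothelial list in level. The windows lie at chr4:55125546-55125845 (KDR, minus strand), chr1:43300732-43301031 (TIE1, plus strand) and chr1:169734030-169734329 (SELE, minus strand), each spans the annotated start of its gene, and they are written 5′ to 3′ on the strand of the gene with each CG in capitals.
KDR: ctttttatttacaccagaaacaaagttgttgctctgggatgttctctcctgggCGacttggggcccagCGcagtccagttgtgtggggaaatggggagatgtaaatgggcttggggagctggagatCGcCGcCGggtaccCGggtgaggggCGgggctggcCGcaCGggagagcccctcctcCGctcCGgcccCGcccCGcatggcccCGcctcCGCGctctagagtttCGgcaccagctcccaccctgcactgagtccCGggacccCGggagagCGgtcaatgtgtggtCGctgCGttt
TIE1: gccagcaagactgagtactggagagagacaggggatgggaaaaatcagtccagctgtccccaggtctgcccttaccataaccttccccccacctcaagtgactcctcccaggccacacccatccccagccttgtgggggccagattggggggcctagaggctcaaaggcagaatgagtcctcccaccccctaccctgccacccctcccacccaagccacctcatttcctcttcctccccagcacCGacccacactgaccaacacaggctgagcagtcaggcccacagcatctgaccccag
SELE: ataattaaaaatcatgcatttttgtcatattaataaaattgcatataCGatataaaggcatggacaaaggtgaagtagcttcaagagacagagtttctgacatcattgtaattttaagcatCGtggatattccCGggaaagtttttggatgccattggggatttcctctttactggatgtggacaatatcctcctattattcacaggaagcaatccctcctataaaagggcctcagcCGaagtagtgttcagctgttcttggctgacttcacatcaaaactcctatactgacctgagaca
The KDR window held 22 CG (ratio 0.697), that of TIE1 held 1 (0.0391) and that of SELE held 4 (0.363). TIE1, at 582 ± 27.0 CPM, thus lay in the CG-poorest class, and SELE had at most 2 counts in a control.

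The 3 controls differed little from each other. Over 9754 genes with a mean of at least 10 CPM, the median CV was 4.50% and 91.4% of genes had a CV under 10%, while 35 genes exceeded 20%. The CV fell with the level, from a median of 11.6% at 1 to 10 CPM (counting error alone 9.88%) to 4.86% at 10 to 100 CPM (3.08%) and 3.75% at 100 to 1000 CPM (1.45%). At 1000 CPM or more (62 genes) it was 4.43%, beside a counting error of 0.530%. Pairs of replicates had Pearson correlations across genes of 0.99765 (1 and 2), 0.99519 (1 and 3) and 0.99544 (2 and 3) on the log2 scale, which describe genes and are not independent replicates. The number of genes that differed by more than 1.4-fold was 8 between replicates 1 and 2, 41 between 1 and 3, and 38 between 2 and 3.

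The biological coefficient of variation that edgeR estimated among controls, the spread beyond counting error, was 0.0555, next to 0.0706 among TMAO 24H and 0.0633 among TMAO 48H libraries. Without control replicate 3 it was 0.0342, and without replicate 1 or 2 it was 0.0619 or 0.0642. Against the mean of the other 2 controls, replicate 3 was at least 1.4-fold higher for 18 genes and lower for 5. Replicates 1 and 2 were higher by this measure for 0 and 1 genes and lower for 10 and 12. These counts are not independent, because a gene far higher in replicate 3 is also lower in replicates 1 and 2 by this measure. The ratio of replicate 3 to the mean of the other 2 moved with transcript length. Genes whose longest transcript was under 1000 bases had a median ratio of 1.11 in replicate 3 (191 genes) and 0.902 in replicate 1, and genes of 8000 bases or more had 0.989 in replicate 3 and 1.04 in replicate 1 (926 genes). The ribosomal RNA share was also highest in replicate 3, at 7.46%, and the part of RNA quality or library preparation in these differences was not tested.

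**Figure D4:**
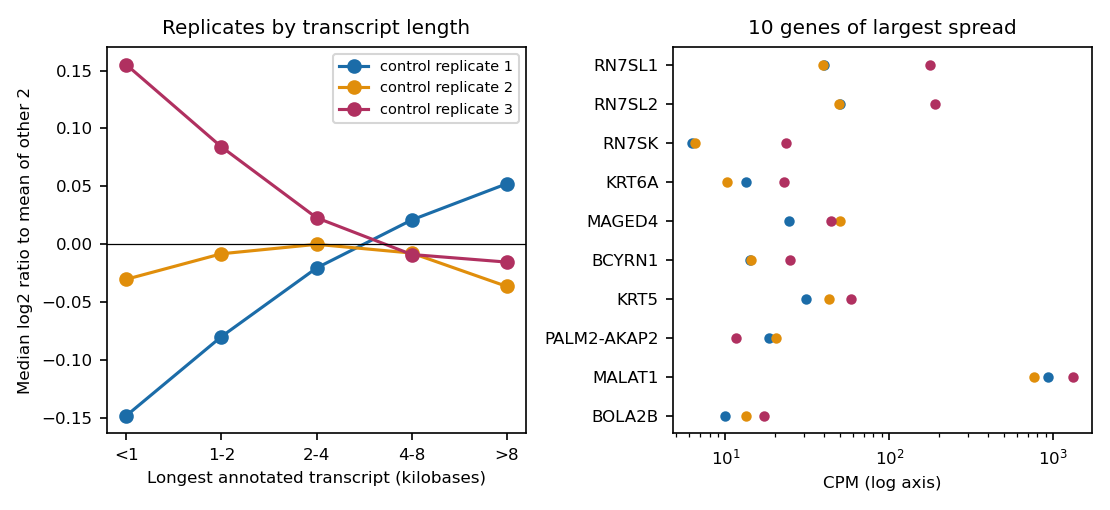
Left, median log2 ratio of each control replicate to the mean of the other 2 (vertical axis) for genes in 5 classes of longest transcript in kilobases (horizontal axis), over genes with at least 10 mean CPM; right, CPM (log axis) of the 10 genes of largest spread, coloured by replicate as on the left. Replicate 3 runs from 0.16 for the shortest to -0.02 for the longest transcripts and replicate 1 from -0.15 to 0.05, and replicate 3 is highest for RN7SL1, RN7SL2, RN7SK, KRT6A, BCYRN1, KRT5, MALAT1 and BOLA2B.

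The genes of largest spread were mostly short structured RNAs and keratins. RN7SL1, the RNA of the signal recognition particle, was at 39.7, 39.5 and 176 CPM in replicates 1 to 3, and its near-identical copy RN7SL2, whose reads counting can split with it, at 49.9, 49.4 and 190.0 CPM. RN7SK, which restrains transcription elongation, was at 6.26, 6.55 and 23.5 CPM, and BCYRN1, another short RNA, at 14.0, 14.2 and 24.8 CPM. All 4 were highest in replicate 3. Among longer transcripts, the nuclear RNA MALAT1 was at 935, 764 and 1320 CPM, MAGED4, which has a near-identical copy, at 24.5, 49.7 and 44.1 CPM, and BOLA2B, also a member of a duplicated pair, at 9.92, 13.4 and 17.2 CPM. PALM2-AKAP2 is a readthrough model that overlaps other genes and was at 18.4, 20.5 and 11.6 CPM. The steadiest genes were ILK, the kinase at integrin adhesions (195 CPM in each replicate to 3 digits), PRCC (81.3, 81.3 and 81.4 CPM), CTDSPL, MALT1 and LTBP4, with CVs of 0.0412% to 0.118%, below counting error.

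The controls were next compared with the treated groups, to show how far the baseline endothelial genes stood from their own spread after TMAO. A single edgeR quasi-likelihood fit took in all 9 libraries. A gene was called at an adjusted p under 0.05 where it also differed 1.4-fold or more. Of 14735 genes tested, 0.0475% were called at 24H and 1.81% at 48H. Of the 49 pan-endothelial genes, 47 could be tested (SELE and TMEM88 did not pass the filter on low counts), and 0 of them were called at 24H by edgeR and 2 at 48H, both lower (0.95% of all genes were called lower and 0.855% higher). With DESeq2 0 were called at 24H and 2 at 48H. At an unadjusted p under 0.05 there were 7 of 47 members at 24H, beside 1077 of all 14735 genes, and 27 of 47 at 48H, beside 3834 of all genes. The median log2 fold change of the list was -0.02 at 24H and -0.17 at 48H, against medians of 0.00 for all genes at both time-points.

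At any fold change, 10.6% of all genes had an adjusted p under 0.05 at 48H (5.82% lower and 4.82% higher). In the pan-endothelial list these were 20 lower genes and 1 higher gene of 47, a count chosen after the data were seen, and it fell to 12 without TMAO 48H replicate 2 and to 13 without control replicate 2. At 24H 0.095% of all genes and 0 members passed, with 1 member passing under DESeq2. The sum of the list was 8371 to 8722 CPM at 24H and 7608 to 7908 CPM at 48H, and the latter range lay below that of the controls.

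PLVAP showed the largest fall of the list, from 4.11, 5.09 and 4.21 CPM in controls to 1.92, 2.51 and 1.88 CPM at 48H (log2 fold change -1.08, standard error 0.162, edgeR adjusted p = 0.000994), and the groups did not overlap. At 24H it was at 4.51, 4.79 and 4.90 CPM, within the range of the controls. SOX17 fell from 28.2, 29.01 and 28.8 to 20.4, 17.9 and 17.7 CPM at 48H (log2 fold change -0.65, standard error 0.0654, edgeR adjusted p = 5.06e-05), again without overlap.

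The 4 markers changed by less than 1.4-fold. At 48H CDH5 was at 602, 629.8 and 662 CPM (log2 fold change -0.27, standard error 0.0597, edgeR adjusted p = 0.0115), below every control. KDR was at 150.2, 158 and 162 CPM (-0.27, standard error 0.0572, adjusted p = 0.00810), also below every control, and PECAM1 at 302, 308 and 331 CPM (-0.25, standard error 0.0601, adjusted p = 0.0160), below the lowest control of 334. PECAM1 and CDH5 did not pass without control replicate 1, control replicate 2 or TMAO 48H replicate 2, with adjusted p-values up to 0.0894 and 0.0673, and KDR passed in all fits without a library. VWF was at 115, 128 and 141.5 CPM at 48H, overlapping the controls (0.08, standard error 0.0744, adjusted p = 0.517). At 24H VWF was at 92.5, 83.1 and 92.9 CPM, below every control, and did not pass in the fit of all libraries (-0.42, standard error 0.0753, edgeR adjusted p = 0.0617), although it passed with DESeq2 (adjusted p = 5.59e-05; 5.59e-05 to 0.437 over 13 alternatives).

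**Figure D5:**
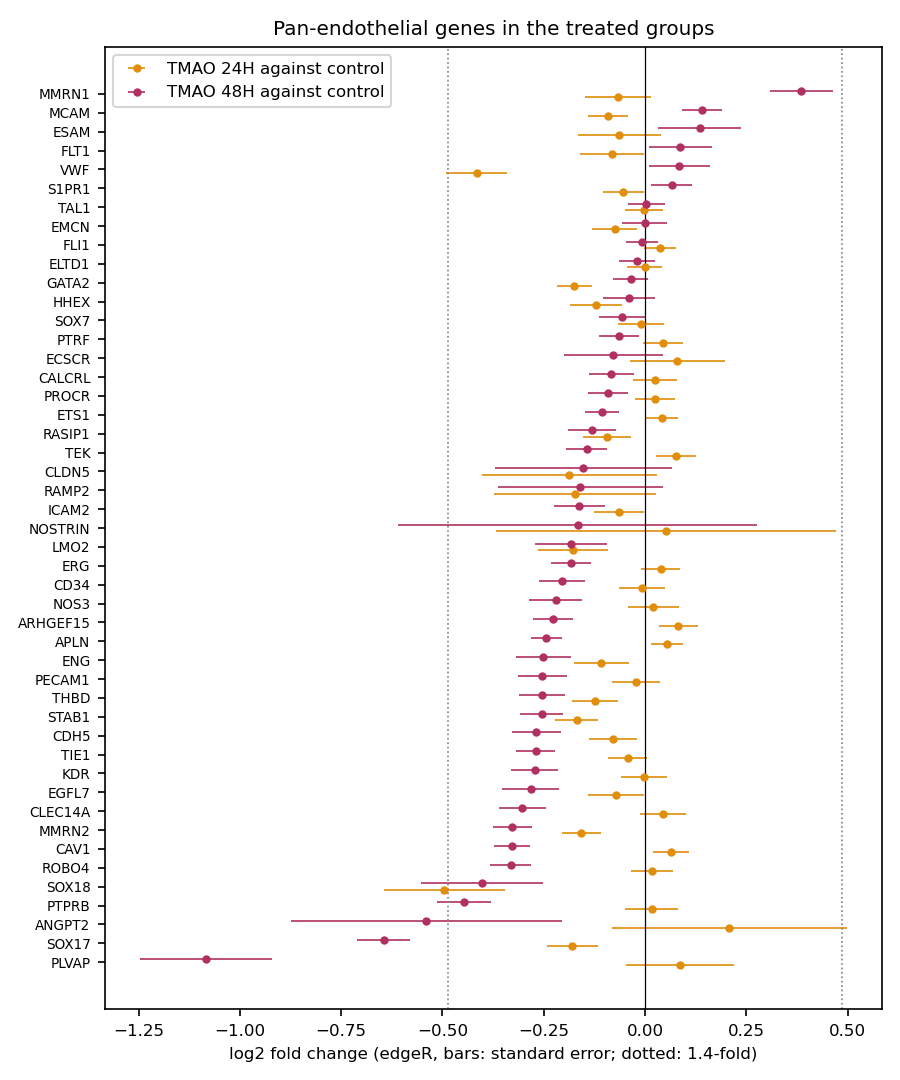
edgeR log2 fold change against control (horizontal axis) of the 47 tested pan-endothelial genes at TMAO 24H and 48H, with bars of 1 standard error and dotted lines at a 1.4-fold change, ordered by the change at 48H. At 48H 40 genes lie below 0 and 7 above, PLVAP and SOX17 lie beyond the dotted line, and VWF lies at -0.42 at 24H.

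Genes of the vessel types behaved as follows at 48H. Over all genes, 0.95% were called lower, and 5.82% were lower with an adjusted p under 0.05 at any fold. Of 13 arterial genes tested, 3 were called lower, NRP1 (141 ± 7.39 CPM in controls and 92.9 ± 2.04 at 48H; log2 fold change -0.62, edgeR adjusted p = 6.76e-06), the netrin receptor UNC5B (-0.54, adjusted p = 0.000126) and the semaphorin SEMA3G (-0.91, adjusted p = 0.00243). Of 6 venous genes 0 were called, and 4 were lower at any fold change, among them NR2F2 (-0.18, adjusted p = 0.0233), which did not pass in 6 of 13 alternatives, the fits without control replicate 1, control replicate 2, TMAO 48H replicate 1 or TMAO 48H replicate 2 among them (adjusted p up to 0.125). The lymphatic gene PDPN was called lower, from 107 ± 6.84 to 71.7 ± 0.774 CPM (-0.60, adjusted p = 1.18e-05). Of the capillary genes AQP1 (-0.66, adjusted p = 0.000920) and RGCC (-1.33, adjusted p = 0.00877) were called lower, and RGCC did not pass without TMAO 48H replicate 2 (adjusted p = 0.0675). At 24H 0 genes of these 4 lists passed by edgeR. With DESeq2, FOXC2, LTBP4 and NR2F2 had an adjusted p under 0.05 at 24H (0.0104, 0.0127 and 0.03). Tested directly against 24H, 1.74% of all genes were called at 48H (0.869% higher and 0.875% lower), and of the pan-endothelial genes VWF was called higher (log2 difference 0.50, edgeR adjusted p = 0.000820) and PLVAP lower (-1.17, adjusted p = 0.000346).

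Lists that do not define endothelium moved as well, and are set beside 0.95% of all genes called lower and 0.855% called higher at 48H. Of 15 fibroblast genes tested, 6 were called lower at 48H, COL1A1 (727 ± 44.6 to 461 ± 20.7 CPM, log2 fold change -0.68), COL1A2 (317 ± 31.1 to 152 ± 11.98 CPM, -1.08), FAP, TWIST2, PI16 and COL6A3. TWIST2 did not pass without control replicate 2 or TMAO 48H replicate 3. The list summed to 1124 to 1283 CPM in controls, 1133 to 1221 at 24H and 756 to 806 at 48H. Of 11 mural genes, ACTA2 (0.74, edgeR adjusted p = 0.00153) and LMOD1 (0.76, adjusted p = 0.0486) were called higher, the latter lost in 8 of 13 alternatives, among them the fits without each control and DESeq2. Of 18 epithelial genes 0 were called at either time-point, and KRT7 and KRT18 were lower at 48H at less than 1.4-fold. Several of these genes were low in TMAO 48H replicate 3 alone, so their standard errors at 48H were wide (0.443 for KRT5 and 0.348 for EPCAM). The lack of calls therefore does not show that they were unchanged. The epithelial list summed to 1164 to 1194 CPM at 24H and 959 to 1111 CPM at 48H. Of 19 leukocyte genes 3 were tested and 0 called, and the list summed to 46.2 to 49.8 CPM in controls, 50.3 to 51.5 at 24H and 52.4 to 58.3 at 48H. The part of other cells in the changes of the endothelial genes was not tested.

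Over all genes, 0.95% were called lower and 0.855% higher at 48H, and 0.0475% lower at 24H. Of the genes with a role in vessel function, 3 of 21 tested were called lower at 48H, among them PLAT and the prostacyclin synthase PTGIS. Of 24 matrix genes 5 were called lower at 48H (COL5A1, NID2, FN1, MMP2 and TGFBI) and 2 lower at 24H (CTGF and CYR61). At an adjusted p under 0.05 and any fold, 14 were lower and 3 higher at 48H, beside 5.82% and 4.82% of all genes. The higher genes were CYR61 (0.44, edgeR adjusted p = 0.000323), COL8A1 (0.34, adjusted p = 0.00166) and CTGF (0.18, adjusted p = 0.0428). The result for CTGF was lost in 8 of 13 alternatives. ICAM1 and CCL2 were called higher among 15 adhesion and chemokine genes, and CLDN1 (0.59, edgeR adjusted p = 0.0116) among 18 junction genes, which did not pass without control replicate 2 (adjusted p = 0.0557). In the proliferation list CDKN1A was called higher of 21 (0.58, adjusted p = 1.35e-06), from 229 ± 7.30 to 346 ± 3.08 CPM, and 0 genes of the growth factor receptor and housekeeping lists were called at either time-point.

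The genes that the study measured by RT-qPCR differed greatly in baseline level. Per kilobase they ran from GAPDH, the reference gene, at 1277 and CTGF at 645 CPM per kilobase to IL6 at 1.70 and IL1B at 0.859 CPM per kilobase. IL1B rested on 1.44, 1.26 and 1.51 CPM in the 3 controls and IL6 on 2.33, 2.48 and 2.98 CPM. GAPDH differed at 48H by -0.15 on the log2 scale (edgeR adjusted p = 0.0485), and this was lost in 10 of 13 alternatives.

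The primers of that assay were matched to GENCODE release 29 transcripts of GRCh38, and both primers of each of the 9 pairs matched transcripts of the same gene, which was the labelled gene for 8 pairs. The study's text names TGF-β1 as the gene of the remaining pair, which is labelled TGFBI. The pair for the reference gene and the pair labelled TGFBI are shown.
GAPDH forward: acagttgccatgtagacc
GAPDH reverse: ttgagcacagggtacttta
TGFBI forward: cccacaacgaaatctatgac
TGFBI reverse: tgtatttctggtacagctcc
The GAPDH pair lies in the untranslated part of exon 9, at chr12:6538281-6538298 and chr12:6538350-6538368 on the plus strand, and gives a product of 88 bases. The pair that carries the label TGFBI matched the transcript of TGFB1, the gene of the cytokine TGF-beta 1, in coding sequence on the minus strand of chromosome 19, and 0 of its primers matched TGFBI, a matrix protein gene with a similar symbol. Its forward primer crosses the junction of exons 1 and 2 and its reverse primer that of exons 2 and 3, for a product of 177 bases, and their spans of chr19:41348445-41352698 and chr19:41344858-41348307 include an intron each. In controls TGFB1 was at 223, 243 and 218 CPM and TGFBI at 999, 972 and 833 CPM. At 48H TGFB1 was lower by less than 1.4-fold (log2 fold change -0.34, edgeR adjusted p = 0.00153), and TGFBI was called lower (-1.06, adjusted p = 1.24e-06).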

How the data were processed

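RNA of 9 HMEC-1 samples was sequenced as paired-end reads. Per the labels and the study's methods, the authors trimmed reads (Trim Galore), ran the nf-core RNAseq pipeline and deposited expected counts (estimated counts per gene symbol, not whole numbers, not normalised). The quantifier, genome build and annotation are not given in the sources used here, so genes carry no coordinates from the counts. Groups follow the sample labels. The members and gene lists were chosen with earlier results of these data known.

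After removal of 6 ribosomal RNA genes, CPM was computed from library totals (27826346 to 29230849 counts in controls). Transcript lengths came from GENCODE release 29. Counts were rounded and fitted with edgeR 4.0.16 (R 4.3.3) by filterByExpr, TMM and glmQLFTest (legacy = FALSE) over all libraries, with Benjamini-Hochberg adjustment over 14735 genes. An exact permutation test of 3 against 3 cannot go below p = 0.1. Data for TMAO 48H against control were simulated over 14548 genes, with the same spread beyond counting error for every gene. At an adjusted p under 0.05 and any fold, edgeR recovered 35 of 48 genes changed 1.4-fold, 47 of 50 changed 2-fold, 50 of 50 changed 3-fold and 45 of 49 changed 0.5-fold, with 12 false calls. Recovery with the 1.4-fold threshold was not measured. The 3 controls were not duplicates, with a chi-square per degree of freedom between 3.27 and 9.05. Alternatives were DESeq2 1.42.0, RLE factors, other filters and thresholds, a fit of the groups compared, ribosomal RNA genes kept, the replicate number as a block, and each library left out. The genes named were the 4 markers, list members that define a role or were called, the RT-qPCR genes, and the genes of highest level, largest spread or smallest spread in controls. A few list members are counted but not reported here by name.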

Additional observations from a re-analysis of the deposited data

Results flagged for a closer look

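For the endothelial lists, the genes measured by RT-qPCR and TGFBI, 48H was also tested directly against 24H (edgeR, adjusted p under 0.05 and at least 1.4-fold, a call that 1.74% of all genes met), and 15 genes differed. The log2 difference of 48H from 24H was -1.17 for PLVAP, 0.50 for VWF, -0.70 for NRP1, -0.51 for UNC5B, -0.59 for SEMA3G, -0.70 for PDPN, -1.03 for RGCC, -1.30 for TIMP4 and -0.68 for AQP1. Among the RT-qPCR genes it was 0.84 for ICAM1, 0.89 for CCL2, 1.06 for IL6, 0.72 for CTGF and -1.19 for MMP2. Against control, the larger change was at 24H for IL6 (log2 fold change -0.79, and 0.27 at 48H) and CTGF (-0.55, and 0.18 at 48H). It was at 48H for ICAM1 (0.78), CCL2 (0.71) and MMP2 (-1.13). TGFBI, the label of a primer pair that matched TGFB1, differed by -1.16. VWF, the only marker of the 4 among the 15 genes, stood at 92.5, 83.1 and 92.9 CPM at 24H and at 115, 128 and 141.5 CPM at 48H (standard error 0.0754, adjusted p = 0.000820). RGCC and TIMP4 stood at only 1.42 and 0.675 mean CPM in controls, and IL6 was also near the limit of detection there. The 24H group includes a library with 31.5% of its counts on ribosomal RNA genes (95% Wilson interval 31.51% to 31.54%) and 889 CPM of RN7SK, against 6.26 to 23.5 CPM in the other 8 libraries, and its part in these differences was not tested.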

How the results depend on the processing

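The number of genes detected, the number of pan-endothelial genes detected and the number of genes called at 48H with the fold threshold stayed within 1.5 times their values under the alternatives run for them. The share of counts on the 100 most abundant genes was 16.5% with ribosomal RNA genes kept and 18.5% per kilobase, against 13.7%, and 13.6% to 13.8% with single controls left out. Levels per kilobase depended on the transcript length used, and the 4 markers changed order with the median length. The coefficient of variation among controls was 0.0342 to 0.0642 with single controls left out. At 24H 14 genes passed with no fold threshold and 13 with DESeq2, against 7, and 2 to 9 with single libraries left out (2 without TMAO 24H replicate 2, 4 without control replicate 2). At 48H 1568 genes passed with no fold threshold, against 266, and 190 to 334 with single libraries left out. Pan-endothelial genes called with single libraries left out were 0 to 1 at 24H (1 without TMAO 24H replicate 3) and 2 to 3 at 48H, and 21 passed at 48H with no fold threshold. That count of 21 was 12 to 20 with single libraries left out. The cause of these shifts was not tested. Across genes, same-numbered samples deviated from their groups with correlations of -0.125 to 0.0720 (9 pairs), next to -0.0763 to 0.142 for samples of different number (18 pairs). Such correlations cannot tell whether same-numbered samples were prepared together. With the replicate number as a block, 6 genes were called at 24H and 216 at 48H, with 0 and 2 pan-endothelial genes, and 16 of these genes at any fold at 48H. Genes below 1 CPM rest on few counts and have wide errors (a standard error of 0.344 for TIMP4 between 48H and 24H, against 0.0754 for VWF).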
